A study of Homo sapiens with 18 samples.

Results

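Immediate early genes are genes whose transcription starts within minutes of a growth or stress signal and needs no new protein synthesis. The 9 described here are FOS, JUN, JUNB, EGR1, KLF6, MYC, DUSP1, IER2 and IER3, taken by name, of 15258 genes with values. All 9 were found, and all 9 reached a mean of at least 1 TPM (a length-scaled share of each library's transcripts) over the libraries, the level asked for a test, as did 14512 genes in all. They were measured by RNA sequencing of input mRNA from MEL624, a human melanoma cell line, in a control line and in 2 clonal lines labelled as knockouts of PCIF1. PCIF1 is the methyltransferase that adds the N6 methyl group to an adenosine that follows the mRNA cap and carries a 2'-O-methyl group. The control line was wild type with a random sgRNA, and the clones are called KO1 and KO2. All lines were grown under the same stated conditions, in DMEM with serum and antibiotics, and no stimulus is named in the labels. Each line had 3 input libraries (A, B and C), which the submitters describe as biological replicates. Each knockout line is 1 clone and there was 1 control line, so the p-values below rest on how far libraries within a line differ, and no spread among independently edited lines could be measured. The 9 m6A-immunoprecipitated libraries were not analysed here.

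Extracellular signals reach these genes mainly through the RAS, RAF, MEK and ERK kinases. ERK phosphorylates ternary complex factors such as ELK1, which sit with serum response factor (SRF) on CArG boxes, and other kinases act on CREB, which binds cyclic AMP response elements. The products are mostly transcription factors: FOS and JUN proteins pair as AP-1, EGR1 and KLF6 are zinc finger proteins, and MYC pairs with MAX. DUSP1 is a phosphatase that switches MAP kinases off, and the mRNAs are short-lived, many of them through AU-rich elements. In melanoma the same kinase route is commonly switched on by mutation of BRAF or NRAS.

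The libraries held 7848089 to 11393206 reads assigned to genes. PCIF1 mRNA stood at 55.2, 62.0 and 55.6 TPM in control libraries A, B and C, at 24.7, 22.0 and 25.3 TPM in KO1, and at 58.0, 64.7 and 58.1 TPM in the libraries labelled KO2. It was thus lower in every KO1 library and overlapped with the control line in KO2 (limma, log2 difference 0.07, adjusted p = 0.542). The gene's mRNA level does not show whether the protein is made, so it is no check of the label of KO2. Of 10 melanocyte and melanoma markers, MITF (means of 37.1, 26.3 and 50 TPM in control, KO1 and KO2) and PAX3 (7.57, 14.3 and 9.99 TPM) had values, while SOX10, PMEL, MLANA, TYR, TYRP1, DCT, S100B and S100A1 had none here. Their summed level was 43.1 to 45.9 TPM in the control line, 39.0 to 43.4 in KO1 and 58.0 to 62.8 in KO2, which did not overlap with the control line. All 4 markers of dedifferentiated melanoma had values. Means in control, KO1 and KO2 were 709.0, 680.5 and 662.1 TPM for AXL and 2.7, 0.899 and 0.815 TPM for NGFR. For SOX9 they were 36.2, 47.7 and 29.2 TPM, higher in KO1 and lower in KO2, and for EGFR 48.0, 47.7 and 37.6 TPM. The sum of the 4, mostly AXL, was 779.9 to 805.1, 746.3 to 794.7 and 682.4 to 765.3 TPM in the same order. The part of these levels in the members' results was not tested. None of 3 endothelial and none of 4 leukocyte markers had values. Of 4 keratinocyte markers only KRT10 had values, at means of 37.4, 35.6 and 35.7 TPM in control, KO1 and KO2. The summed level of the fibroblast list ranged from 0.745 to 1.02 TPM in the control line, 2.76 to 3.52 in KO1 and 1.26 to 1.87 in KO2. Of its genes only LUM and COL1A1 had values: LUM was higher in the clones, at means of 0.0665, 2.39 and 1.15 TPM in control, KO1 and KO2, and COL1A1 lower, at 0.805, 0.72 and 0.401 TPM.

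The sequence just upstream of the annotated start is where the signal-dependent factors are known to act, so 5 members whose changes or levels the results turn on are shown with the 150 bases before the start. RefSeq promoter sequences (GRCh38.p14) were matched for 7 of the 9 members by symbol, and the start was that of the GENCODE 44 canonical transcript in all 7. Capitals mark matches on either strand to the CArG box, TGACGTCA (the full cyclic AMP response element), TGACG (its shorter form), TATAAA, GCGNGGGCG (an EGR1 binding motif) and CACGTG (the E-box that MYC and MAX bind). TGACG is part of TGACGTCA, and TGACG (read as CGTCA on the other strand) and CACGTG overlap in DUSP1. Each line runs 5′ to 3′ on the gene's strand and ends at the base before the start.
EGR1, chr5:138465329-138465478 (plus strand): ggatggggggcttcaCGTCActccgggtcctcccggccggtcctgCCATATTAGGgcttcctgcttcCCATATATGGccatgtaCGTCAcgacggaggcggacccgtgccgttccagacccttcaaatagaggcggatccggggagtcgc
DUSP1, chr5:172771196-172771345 (minus strand): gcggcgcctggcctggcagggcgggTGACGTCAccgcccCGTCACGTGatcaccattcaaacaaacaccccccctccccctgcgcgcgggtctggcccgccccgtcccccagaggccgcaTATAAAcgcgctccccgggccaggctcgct
KLF6, chr10:3785210-3785359 (minus strand): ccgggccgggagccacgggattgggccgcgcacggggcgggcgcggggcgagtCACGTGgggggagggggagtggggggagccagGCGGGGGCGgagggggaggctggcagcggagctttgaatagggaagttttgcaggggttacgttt
JUNB, chr19:12791336-12791485 (plus strand): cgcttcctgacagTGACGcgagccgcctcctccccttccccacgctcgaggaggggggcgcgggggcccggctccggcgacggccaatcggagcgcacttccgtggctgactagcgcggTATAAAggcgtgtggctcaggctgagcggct
FOS, chr14:75278678-75278827 (plus strand): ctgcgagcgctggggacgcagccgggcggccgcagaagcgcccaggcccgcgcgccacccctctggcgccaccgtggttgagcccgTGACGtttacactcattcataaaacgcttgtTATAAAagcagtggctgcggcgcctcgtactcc

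The windows differ in what they hold. EGR1 carried a pair of CArG boxes, whose first bases lie at -105 and -83 from the start, and was 1 of 7 members with a match in the 300 bases searched (250 before the start and 50 from it on). A CArG box was found in 1.29% of the 35116 RefSeq promoters of that length. DUSP1 carried the full TGACGTCA at -125 and was 1 of 7 members to do so, beside 1.85% of all promoters. The shorter TGACG was found in 6 of 7 members, all but KLF6, and in 24.6% of promoters. TATAAA stood at -33 in FOS, -31 in JUNB and -30 in DUSP1, 3 of 7 members beside 11.5% of promoters. GCGNGGGCG was found in KLF6 at -65 and in EGR1 at -198, outside the window printed, 2 of 7 members beside 9.43% of promoters. CACGTG was found in KLF6 at -97 and DUSP1 at -108, 2 of 7 members beside 7.26% of promoters. A match is a description of letters and not a measured binding site. Sequence further from the start was not searched, so a gene without a match here may carry the motif elsewhere.

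The first transcribed base matters for PCIF1, whose known substrate is an mRNA that begins with adenosine. The annotated start base was A for FOS and IER2 and G for JUN, JUNB, EGR1, KLF6 and DUSP1. Over all RefSeq promoters 44.4% of starts were A and 33.6% were G. These are annotated starts, and the starts used in MEL624 were not measured here.

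The 9 genes are compact, as is typical of immediate early genes. They had a median of 2 exons (1 to 4) against 8 over the 14396 tested genes with an annotated model, and all 9 lay below that median. Their median span on the genome was 3825 bases (1350 to 9286) against 28625.5 bases for all. Their median transcript GC content was 55.3% (45.7% in KLF6 to 64.9% in JUNB) against 48.5%.

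The members covered a wide range of levels in the control line. JUN stood highest at 158.2 ± 6.78 TPM (SD, n = 3), followed by IER2 at 136.4 ± 4.57, DUSP1 at 89.8 ± 4.47, MYC at 79.4 ± 4.07, JUNB at 46.4 ± 5.46, KLF6 at 33.9 ± 1.07 and EGR1 at 4.37 ± 1.11 TPM. IER3 at 1.29 ± 0.341 TPM and FOS at 1.17 ± 0.219 TPM came last and overlapped with each other. JUN was at the 92.8th percentile of tested genes and FOS at the 2.23rd. In both clones MYC stood above DUSP1 and KLF6 above JUNB, although in KO2 the libraries of KLF6 and JUNB overlapped. In KO2 the libraries of IER3 also overlapped with those of EGR1 and with those of FOS.

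**Figure D1:**
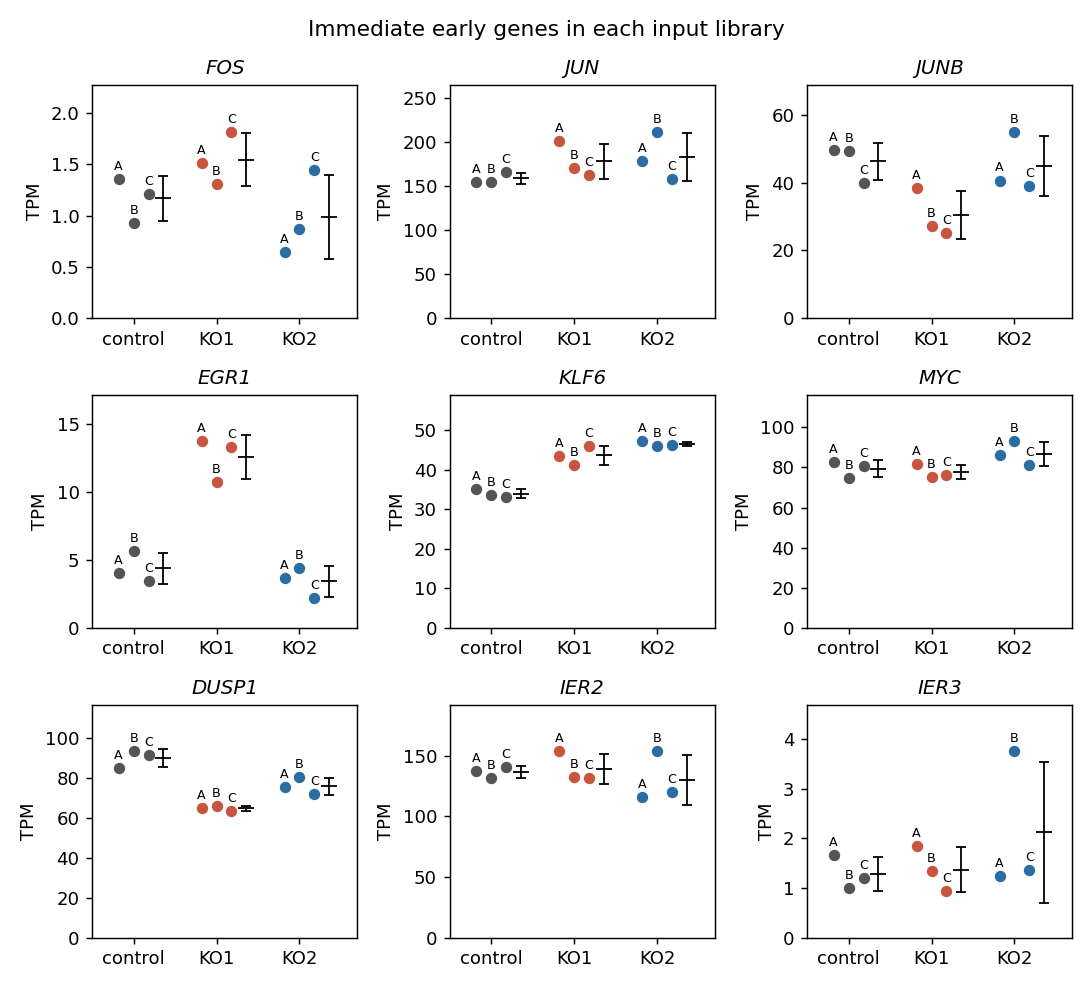
TPM of each of the 9 genes in control, KO1 and KO2 (one panel per gene, linear axes from 0; points are libraries A, B and C, the black mark and bar the mean ± SD, n = 3). EGR1 stands at 10.7 to 13.7 TPM in KO1 and at 2.16 to 5.61 TPM in the other lines, KLF6 is higher and DUSP1 lower in both clones, and JUNB is lower in KO1.

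In KO1, EGR1 and KLF6 rose and JUNB and DUSP1 fell, 4 of 9 members, and the same 4 were the members whose libraries did not overlap with the control line. Over all tested genes 34.3% passed in KO1 (limma, adjusted p under 0.05), 20.2% higher and 14.1% lower, and 49.9% did not overlap, so the share of members is near that of all genes. In KO2, KLF6 rose and DUSP1 fell, 2 of 9 members, and these alone did not overlap. The shares over all genes were 30.4% (15.6% higher, 14.8% lower) and 43.7%. The median log2 difference of the members was 0.07 in KO1 and -0.06 in KO2, beside 0.035 and 0.01 over all tested genes. Bulk libraries cannot tell fewer expressing cells from less RNA per cell.

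Between the clones, which share no control library in this comparison, JUNB and DUSP1 were higher and EGR1 lower in KO2 than in KO1, 3 of 9 members. KLF6 libraries did not overlap between the clones either, but its difference missed the threshold. The shares over all genes were 28.7% (11.8% higher in KO2, 16.9% lower) and 43.0% without overlap. On the average of both clones against the control line, KLF6 rose and DUSP1 fell, 2 of 9 members beside 34.4% of all genes. EGR1 missed the threshold there (log2 difference 0.58, limma adjusted p = 0.0744) but passed in 5 of 20 alternatives (lowest adjusted p = 0.0107, without KO2 C; 0.0477 without control B). JUNB likewise missed it (-0.34, adjusted p = 0.102) and passed in 4 of 20 (lowest 0.00389, with limma-voom; 0.0228 without KO1 A and 0.0367 without KO2 B). JUN passed in 1 (0.0499, without KO2 C). The comparisons of each clone with the control line share the control libraries.

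The balance of higher and lower calls over all genes depended on the scaling. Of the genes called in KO1, 58.9% were higher on the deposited scale, and 49.7% after median centring, 47.1% with limma-voom on recovered reads and 48.9% with a trend in GC content and length subtracted. For KO2 against KO1 the share was 41.1% on the deposited scale and 55.5% after median centring, and for the average of both clones 56.3% and, with limma-voom, 45.9%. The directions given below for EGR1, KLF6, JUNB in KO1, and DUSP1 were the same under all of these scalings.

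**Figure D2:**
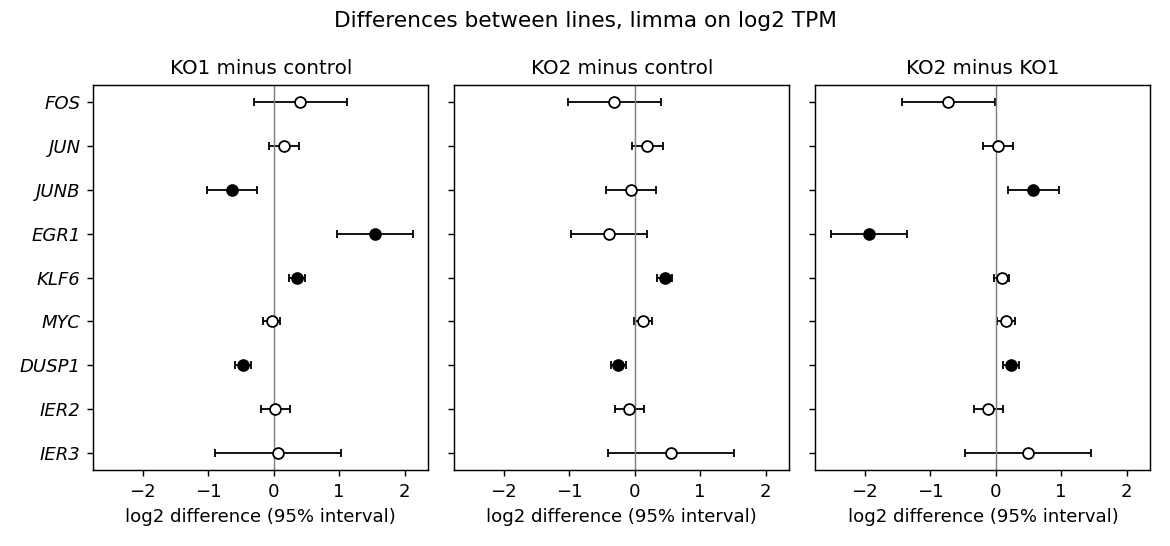
Log2 difference of each gene in KO1 against control, KO2 against control and KO2 against KO1 (points, limma estimate; bars, 95% interval; filled points, adjusted p under 0.05). Filled points are EGR1, KLF6, JUNB and DUSP1 in KO1, KLF6 and DUSP1 in KO2, and EGR1, JUNB and DUSP1 between the clones, and the bars of FOS and IER3 are the widest.

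FOS, the founding partner of AP-1, was close to the lower limit of what these libraries measure. Its level was 1.36, 0.931 and 1.21 TPM in control libraries A, B and C, which rested on 14, 7 and 10 reads. It was 1.51, 1.31 and 1.82 TPM in KO1 (12, 12 and 15 reads) and 0.641, 0.871 and 1.44 TPM in KO2 (5, 6 and 13 reads). The 3 lines overlapped. The log2 difference was 0.41 in KO1 (95% interval -0.30 to 1.12, limma adjusted p = 0.354) and -0.31 in KO2 (-1.02 to 0.40, adjusted p = 0.505). Both intervals are wide, and changes in either direction within them remain possible. Between the clones it was -0.72 (-1.43 to -0.01, adjusted p = 0.121), and -1.04 without KO2 C, past the threshold (adjusted p = 0.0328).

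JUN, which pairs with FOS proteins or with itself, was the most abundant member in every line. It stood at 154.5, 154.1 and 166.0 TPM in the control line, at 200.3, 170.2 and 162.3 TPM in KO1 and at 177.8, 211.4 and 157.5 TPM in KO2. One library of each clone, KO1 C and KO2 C, lay within the range of the control line, and the others lay above it. JUN differed from the control line by 0.16 in KO1 (limma adjusted p = 0.258; interval -0.07 to 0.39) and 0.19 in KO2 (adjusted p = 0.189; interval -0.04 to 0.43).

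JUNB, an AP-1 subunit that often restrains the activity of JUN, fell in KO1. It stood at 49.6, 49.5 and 40.1 TPM in the control line, at 38.5, 27.3 and 25.3 TPM in KO1, and at 40.7, 55.2 and 39.1 TPM in KO2. All KO1 libraries lay below all control libraries, with KO1 A and control C close to each other, while the KO2 libraries spanned the control range. The log2 difference in KO1 was -0.63 ± 0.172 (SE, n = 3; 1.55-fold lower, limma adjusted p = 0.018), and in KO2 it was -0.06 (adjusted p = 0.842). KO2 was 1.49-fold higher than KO1 (log2 difference 0.57, adjusted p = 0.0313). The fall in KO1 lost its call without control A (adjusted p = 0.0599), control B (0.062), KO1 B (0.0601) or KO1 C (0.0685). The difference between the clones lost its call in limma without a variance trend (adjusted p = 0.0617), with only these clones in the fit (0.0555), and without KO1 B (0.0956), KO1 C (0.111) or KO2 B (0.0939).

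Most of the summed level of the FOS family lay with another gene than FOS. FOSL1, a FOS relative known for sustained expression in cells with an active ERK route, stood at 1019.6 ± 18.6 TPM in the control line and made up 91.4% ± 0.186 (SD, n = 3) of the summed TPM of FOS, FOSB, FOSL1 and FOSL2. FOSL2 made up 8.36% ± 0.194, FOSB 0.106% ± 0.0202 and FOS 0.105% ± 0.0194. FOSL1 fell in both clones, to 864.7 ± 44 TPM in KO1 (log2 difference -0.24, limma adjusted p = 0.0248) and 870.5 ± 99.5 TPM in KO2 (-0.23, adjusted p = 0.0298). FOSL2 rose in KO1, from 93.2 ± 1.06 to 106.9 ± 4.6 TPM (log2 difference 0.20, limma adjusted p = 0.0435), and its log2 difference in KO2 was -0.07 (adjusted p = 0.46). With 1 library left out of the limma fit, the call of FOSL1 in KO1 ended without control A or B or KO1 B or C (adjusted p 0.0685 to 0.0816), and in KO2 without any control library or KO2 A or C (0.0579 to 0.0875). Both calls of FOSL1 also ended with no variance trend (0.0615 and 0.0721), and that in KO2 relative to its neighbours (0.0594). The call of FOSL2 ended without any 1 of 7 libraries, all but KO2 B and C (adjusted p 0.0537 to 0.13), and with median centring (0.0813), no variance trend (0.0836), the GC and length trend subtracted (0.504) or the neighbours' median subtracted (0.0913).

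In the JUN family, JUN made up 44.9% ± 1.59, JUND 42.0% ± 1.37 and JUNB 13.2% ± 1.75 of the summed TPM in the control line (SD, n = 3). In KO1 the shares were 48.0% ± 1.62 for JUN, 43.9% ± 1.3 for JUND and 8.11% ± 0.725 for JUNB. In KO2 they were 40.0% ± 4.46, 50.2% ± 5.07 and 9.79% ± 0.7, with JUNB itself at 45.0 ± 8.84 TPM beside 46.4 ± 5.46 TPM in the control line. JUND, which is expressed more steadily than the other JUN genes, stood at 153.8, 138.0 and 152.4 TPM in the control line, 193.3, 145.6 and 151.2 TPM in KO1 and 196.8, 340.3 and 175.9 TPM in KO2. KO2 B stands far above the other libraries of its line. The call in KO2 was near the threshold (log2 difference 0.62, limma adjusted p = 0.0461), and in KO1 the log2 difference was 0.13 (adjusted p = 0.665). It ended without any 1 of 7 libraries, all but KO1 A and KO2 C, with limma adjusted p of 0.0501 to 0.125.

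Of the 14 partners of FOS and JUN in AP-1 listed, 13 were tested, and in KO1 2 rose and 4 fell, while KO2 had 3 higher and 2 lower, to be read beside 20.2% higher and 14.1% lower of all tested genes in KO1 and 15.6% and 14.8% in KO2, as are the counts of the lists that follow. BATF3, a small leucine zipper partner of JUN, moved in opposite directions. It fell in KO1, from 5.3 ± 1.47 to 3.28 ± 0.649 TPM (SD, n = 3; log2 difference -0.68, limma adjusted p = 0.0278), and rose in KO2, to 8.27 ± 0.687 TPM (0.67, adjusted p = 0.0316), with KO2 above KO1 by 1.35 (adjusted p = 0.00106). The small MAF protein gene MAFF fell in both, by 0.61 in KO1 (limma adjusted p = 4.27e-05) and by 0.51 in KO2 (adjusted p = 0.000113) on the log2 scale. MAFK, a further small MAF gene, fell by 0.37 in KO1 (limma adjusted p = 0.0206), and its log2 difference in KO2 was -0.28 (adjusted p = 0.0632). The call of BATF3 in KO1 ended without control B or C or KO1 A or C (limma adjusted p 0.0516 to 0.0955), that in KO2 without control A or C or KO2 B or C (0.0808 to 0.109), and that of MAFK without control B or C or KO1 B or C (0.0628 to 0.0736).

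EGR1, a zinc finger activator that is one of the most responsive targets of SRF, showed the largest difference among the 9 members. It stood at 4.05, 5.61 and 3.45 TPM in the control line (41, 42 and 28 reads), at 13.7, 10.7 and 13.3 TPM in KO1 (107, 97 and 108 reads) and at 3.69, 4.37 and 2.16 TPM in KO2 (29, 30 and 19 reads). Every KO1 library lay above every library of the other lines, and control and KO2 libraries overlapped. EGR1 rose 2.92-fold in KO1 (log2 difference 1.54 ± 0.262, SE, n = 3, limma adjusted p = 0.00157), and the log2 difference in KO2 was -0.39 (interval -0.97 to 0.19, adjusted p = 0.295). KO2 was 3.82-fold below KO1 (log2 difference -1.93, interval -2.52 to -1.35, adjusted p = 0.000554). Over the 21 alternatives tried, the difference in KO1 ranged from 0.91, on log2(TPM + 5), to 1.74 and was called in all of them, and so was the difference between the clones, which ranged from -2.14 to -1.07.

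The promoter of EGR1 with its pair of CArG boxes is printed above, and the genes for the factors that act there were measured too. SRF itself had log2 differences of -0.07 in KO1 (limma adjusted p = 0.48) and 0.12 in KO2 (adjusted p = 0.233). Of the 14 serum response and CREB genes listed, all were tested; in KO1 5 rose and 1 fell, while KO2 had 2 higher and 2 lower. The number that fell in KO1 was 3 with median centring and 4 with the GC and length trend subtracted. ELK1, the ternary complex factor that ERK phosphorylates, rose in KO1 by 0.24 (limma adjusted p = 0.0159), with 0.07 in KO2 (adjusted p = 0.424). MRTFA, the actin-regulated coactivator of SRF, rose in both clones, by 0.44 in KO1 (limma adjusted p = 0.00255) and 0.24 in KO2 (adjusted p = 0.0465). The call of MRTFA in KO2 ended without any 1 of 8 libraries, all but KO2 B (limma adjusted p 0.0634 to 0.145), and that of ELK1 without control B, KO1 A or KO1 B (0.0535 to 0.0558).

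ELK3, a ternary complex factor that can repress, fell in KO2 by 0.39 (limma adjusted p = 0.000249; log2 scale), beside -0.11 in KO1 (adjusted p = 0.104). CRTC1, a coactivator of CREB, rose in KO1 by 0.47 (limma adjusted p = 0.00856), beside -0.02 in KO2 (adjusted p = 0.921), and differed between the clones by -0.49 (adjusted p = 0.0084). NAB1, which represses EGR proteins bound to DNA, rose in both clones, from 25.8 ± 1.45 TPM (SD, n = 3) to 31.7 ± 0.89 in KO1 (log2 difference 0.30, limma adjusted p = 0.00462) and 33.8 ± 1.77 in KO2 (0.39, adjusted p = 0.000984). Relative to its neighbours on chromosome 2 the log2 difference of NAB1 was -0.08 in KO1 (limma adjusted p = 0.41) and 0.11 in KO2 (adjusted p = 0.273).

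KLF6, a zinc finger factor of the Krüppel-like family, rose in both clones with little spread. It stood at 35.2, 33.5 and 33.1 TPM in the control line, at 43.6, 41.2 and 46.1 TPM in KO1 and at 47.2, 46.1 and 46.4 TPM in KO2. No clone library overlapped with the control line, and the KO2 libraries lay above the highest KO1 library, KO2 B only just. The log2 difference was 0.36 ± 0.0527 in KO1 (SE, n = 3; 1.28-fold, limma adjusted p = 0.000639) and 0.46 ± 0.0527 in KO2 (1.37-fold, adjusted p = 0.000132). Between the clones it was 0.10 (interval -0.02 to 0.21, adjusted p = 0.205), and past the threshold with the GC and length trend subtracted (0.155, adjusted p = 0.0278) and relative to its neighbours (0.171, adjusted p = 0.0357). On the average of both clones KLF6 was 1.33-fold higher (adjusted p = 0.000107), and the calls in each clone stood in all 21 alternatives.

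MYC, which with MAX drives genes of growth and metabolism, differed little between the lines. It stood at 82.7, 74.8 and 80.7 TPM in the control line, at 81.6, 75.2 and 76.3 TPM in KO1 and at 86.0, 93.0 and 81.3 TPM in KO2. The KO1 libraries lay within the control range, and KO2 C lay within it while KO2 A and B lay above. MYC differed from the control line by -0.03 in KO1 (interval -0.16 to 0.10, limma adjusted p = 0.733) and 0.13 in KO2 (-0.01 to 0.26, adjusted p = 0.139). Between the clones it was 0.16 (0.02 to 0.29, adjusted p = 0.0759), and 5 alternatives placed it past the threshold, with adjusted p of 0.0157 at the lowest over all 21.

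Of 18 genes listed for the MYC network, 15 were tested; in KO1 4 rose and 2 fell, while KO2 had 3 higher and 2 lower. MXI1, which competes with MYC for MAX and represses its targets, fell in KO1 and rose in KO2. Its level was 24.1 ± 0.943 TPM in the control line, 15.8 ± 1.51 in KO1 (SD, n = 3; log2 difference -0.62, limma adjusted p = 0.000208) and 29.0 ± 0.827 in KO2 (0.27, adjusted p = 0.0228). The clones differed by 0.88 (adjusted p = 3.08e-05). The rise in KO2 ended without control B or C or KO2 B or C (limma adjusted p 0.0535 to 0.0766), and relative to the neighbours on chromosome 10 the value was -0.10 (adjusted p = 0.356), while the fall in KO1 was -0.65 (adjusted p = 0.000144). MYCBP2, a ubiquitin ligase first described as a MYC-binding protein, rose by 0.53 in KO1 (limma adjusted p = 0.000127) and 0.40 in KO2 (adjusted p = 0.000657). MLX, a MAX-like protein, and MYCBP did not pass the test, with log2 differences of 0.05 to 0.11.

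DUSP1, the phosphatase that dephosphorylates p38, JNK and ERK in the nucleus, fell in both clones. It stood at 84.8, 93.3 and 91.4 TPM in the control line, at 64.7, 66.1 and 63.2 TPM in KO1 and at 75.3, 80.3 and 71.8 TPM in KO2. The 3 lines did not overlap: all KO1 libraries lay lowest, the KO2 libraries came between, and the control libraries lay highest. The log2 difference was -0.47 ± 0.0532 in KO1 (SE, n = 3; 1.39-fold lower, limma adjusted p = 0.000135) and -0.25 ± 0.0532 in KO2 (1.19-fold lower, adjusted p = 0.00615). The fall was larger in KO1, by 0.23 (interval 0.11 to 0.35, adjusted p = 0.0104). All of these calls stood in all 21 alternatives.

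Other phosphatases and feedback genes of the MAP kinase route are known to shape the same signal. Of 15 listed, 14 were tested; in KO1 4 rose and none fell, while KO2 had 3 higher and 3 lower, by the same limma threshold. In KO1, 2 were lower at an unadjusted p under 0.05, and 2 fell with median centring or limma-voom and 3 with the GC and length trend subtracted. DUSP7, an ERK phosphatase of the cytoplasm, rose in both clones, from 27.0 ± 0.993 TPM to 34 ± 1.22 in KO1 (SD, n = 3; log2 difference 0.33, limma adjusted p = 0.00158) and 42.8 ± 2.08 in KO2 (0.66, adjusted p = 1.79e-05). Relative to its neighbours on chromosome 3 the values of DUSP7 were 0.36 in KO1 (limma adjusted p = 0.000578) and 0.26 in KO2 (adjusted p = 0.00416). Its difference between the clones, 0.33 (limma adjusted p = 0.00207), was -0.10 relative to the neighbours (adjusted p = 0.19). DUSP5, a nuclear ERK phosphatase, rose in KO2 by 0.35 (limma adjusted p = 4.11e-05), beside -0.02 in KO1 (adjusted p = 0.739). Relative to its neighbours on chromosome 10 the value of DUSP5 in KO2 was -0.02 (limma adjusted p = 0.742). DUSP4, a further nuclear MAP kinase phosphatase, fell in KO2 by 0.28 (limma adjusted p = 0.00133), beside -0.01 in KO1 (adjusted p = 0.935). SPRY1, a Sprouty inhibitor of receptor signals, fell in KO2 from 5.5 ± 1.18 to 3.22 ± 0.43 TPM (SD, n = 3; log2 difference -0.76, limma adjusted p = 0.00865), beside 0.26 in KO1 (adjusted p = 0.284).

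Among 17 kinases upstream, all tested, in KO1 2 rose and 5 fell, while KO2 had 2 higher and 7 lower. Over all tested genes 20.2% were higher and 14.1% lower in KO1, and 15.6% and 14.8% in KO2. With the GC and length trend subtracted, 1 rose and 9 fell in KO1. RPS6KA2, an ERK-activated ribosomal S6 kinase, stood at 20.6 ± 0.816 TPM in the control line and fell to 9.85 ± 1.02 TPM in KO1 (SD, n = 3; log2 difference -1.07, limma adjusted p = 0.00026) and to 2.4 ± 0.428 TPM in KO2 (-3.12, adjusted p = 2.07e-07). MAPK3, which encodes ERK1, fell by 0.41 in KO1 (limma adjusted p = 0.00154) and by 0.35 in KO2 (adjusted p = 0.00363). MAP2K1, which encodes MEK1, fell by 0.14 in KO1 (limma adjusted p = 0.0355) and by 0.16 in KO2 (adjusted p = 0.02). The call of MAP2K1 in KO1 ended without control B or C or KO1 B or C (limma adjusted p 0.0588 to 0.136) and relative to its neighbours (0.105), and that in KO2 without control B or C or KO2 C (0.0595 to 0.0726) and relative to its neighbours (0.155). RPS6KA4, which encodes a kinase of CREB and histone H3, fell by 0.27 in KO2 (limma adjusted p = 0.00938), beside -0.11 in KO1 (adjusted p = 0.207). These are mRNA levels, and kinase activity was not measured.

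IER2, a nuclear protein of the immediate early set, was the second most abundant member and did not pass the test in either clone. It stood at 137.2, 131.6 and 140.6 TPM in the control line, at 153.6, 132.4 and 131.4 TPM in KO1 and at 115.8, 153.4 and 120.2 TPM in KO2. The KO2 libraries lay on either side of the control range, with B above and A and C below. IER2 differed from the control line by 0.02 in KO1 (limma adjusted p = 0.871) and -0.08 in KO2 (adjusted p = 0.57). Without KO2 B the difference in KO2 was -0.21 (adjusted p = 0.0476), and that between the clones -0.23 (adjusted p = 0.0332) in place of -0.11 (adjusted p = 0.455).

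IER3, a stress-induced regulator of survival and of ERK signalling, was measured with few reads. Its level was 1.66, 0.993 and 1.2 TPM in the control line (7, 3 and 4 reads), 1.84, 1.34 and 0.929 TPM in KO1 (6, 5 and 3 reads) and 1.24, 3.75 and 1.37 TPM in KO2 (4, 11 and 5 reads). The lines overlapped, and KO2 B was the highest library. The log2 difference was 0.07 in KO1 (interval -0.89 to 1.03, limma adjusted p = 0.917) and 0.56 in KO2 (-0.40 to 1.52, adjusted p = 0.365). With intervals this wide, changes in either direction within them remain possible. Without KO2 B the difference in KO2 was 0.0513 (adjusted p = 0.932).

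KO2 B was the highest library of its line for 7 of 9 members, all but FOS and KLF6, and KO1 A for 6 of 9, while over all tested genes these libraries were highest for 38.2% and 39.1%. The median deviation of the members from their line mean was 0.225 in KO2 B and 0.129 in KO1 A on the log2 scale, and between -0.099 and 0.051 in the other libraries. The 1440 tested genes in the highest decile of GC content (61.7% or more) deviated the same way, with a median of 0.129 in KO2 B and 0.101 in KO1 A, beside 0.008 in each over all genes. Of the members only JUNB (64.9%) and IER2 (63.0%) lie in that decile, and the others range from 45.7% in KLF6 to 58.1% in IER3. KO2 B was also the shallowest library, at 7848089 reads. The part of GC content or depth in the members' levels was not tested beyond the fit with the GC and length trend subtracted, which kept the 4 calls in KO1 and the 2 in KO2.

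**Figure D3:**
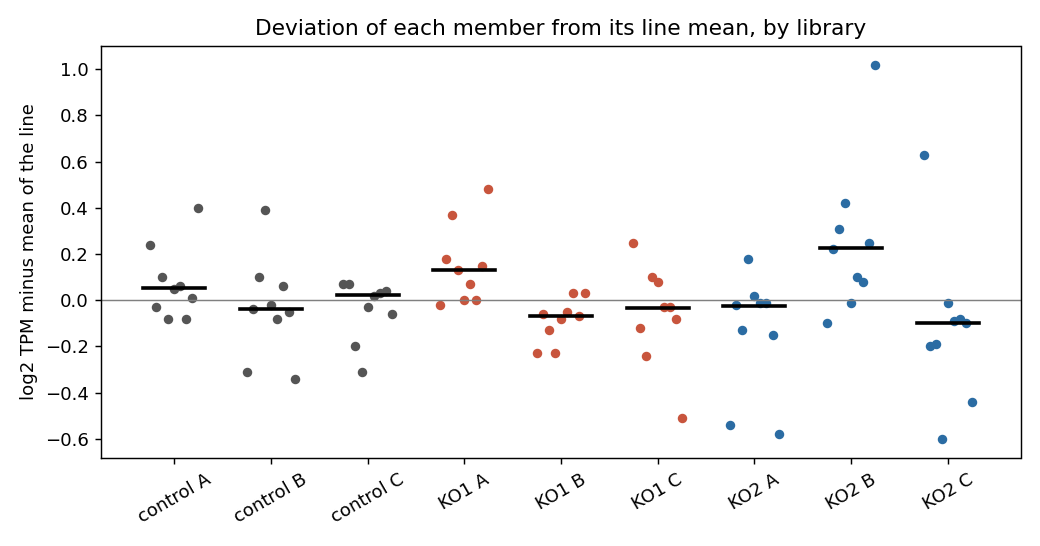
Log2 TPM of each of the 9 genes minus the mean of its line, by library (points, genes; black bars, median of the 9). The medians of KO1 A (0.129) and KO2 B (0.225) stand above those of the other libraries, and single points are widest for IER3, FOS and EGR1.

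A list of heat shock and handling stress genes is given because immediate early genes also respond to how cells are treated before lysis. Its summed level was 6739.8 to 6742.1 TPM in the control line, 7222.5 to 7391.0 in KO1 and 6488.9 to 7303.2 in KO2, with KO2 B lowest. HSP90AA1 (2041.1 TPM in the control line), HSPA8 (1971.3) and HSPD1 (745.5) dominate that sum, which says little about the list's less abundant genes. Of the 12 genes, in KO1 5 rose (DNAJA1, HSPE1, HSPD1, BAG3 and HSPA5) and 2 fell (DNAJB1 and HSPB1). KO2 had 5 higher (HSPA1B, DNAJA1, HSPE1, HSPD1 and BAG3) and 4 lower (HSPH1, DNAJB1, HSPB1 and HSPA5). Between the clones HSPA1A was higher in KO2, and HSPH1, HSPB1 and HSPA5 were lower. HSPD1, a mitochondrial chaperonin, rose by 0.60 in KO1 (limma adjusted p = 3.74e-06) and by 0.55 in KO2 (adjusted p = 6.02e-06). Relative to its neighbours on chromosome 2 the value of HSPD1 was 0.02 in KO1 (limma adjusted p = 0.726) and 0.09 in KO2 (adjusted p = 0.0809). HSPB1, a small heat shock protein gene, fell by 0.61 in KO1 (limma adjusted p = 2.4e-05) and by 1.10 in KO2 (adjusted p = 3.94e-07). The cytosolic chaperones HSPA8 and HSP90AA1 did not pass, with log2 differences of -0.11 to 0.09. Their part in the members' levels was not tested.

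In each clone taken alone, most genes of the wider immediate early set did not pass the test, and those that did lay in both directions. The genes that passed were partly different in the 2 clones, so more passed in at least 1 clone than in either alone. Of 41 further genes listed, 34 were tested, and EGR2, EGR3, EGR4, NR4A3, NPAS4, SIK1 and PTGS2 had no values here. The list is broad and includes JUND, named above as more steadily expressed. FOSB, FOSL1, FOSL2, JUND, ATF3, MAFF and MAFK are also on the list of AP-1 partners. ZFP36, ZFP36L1 and ZFP36L2 are also on the list of AU-rich element binding proteins, so the counts of these lists are not separate. In KO1 7 rose and 6 fell, with a median of 0.04, and in KO2 8 rose and 7 fell, with a median of -0.03. The shares over all tested genes were 20.2% higher and 14.1% lower in KO1 and 15.6% and 14.8% in KO2. RHOB, a short-lived GTPase, fell in KO1 from 13.5 ± 0.402 to 3.51 ± 0.805 TPM (SD, n = 3; 3.91-fold, limma adjusted p = 1.66e-05) and in KO2 to 9.74 ± 0.997 TPM (1.39-fold, adjusted p = 0.0477). BTG2, an antiproliferative gene, fell in KO2 from 13.6 ± 0.368 to 6.84 ± 0.672 TPM (SD, n = 3; log2 difference -1.0, limma adjusted p = 2.96e-05), beside 0.02 in KO1 (adjusted p = 0.866). CCN1, a secreted matrix protein gene and target of SRF and YAP, rose in KO2 by 0.22 (limma adjusted p = 0.0211), beside 0.16 in KO1 (adjusted p = 0.0694). The call of RHOB in KO2 ended without any 1 of 7 libraries, all but KO1 A and B (limma adjusted p 0.0537 to 0.145), and that of CCN1 without control A or C or KO2 A or B (0.0578 to 0.0674).

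**Figure D4:**
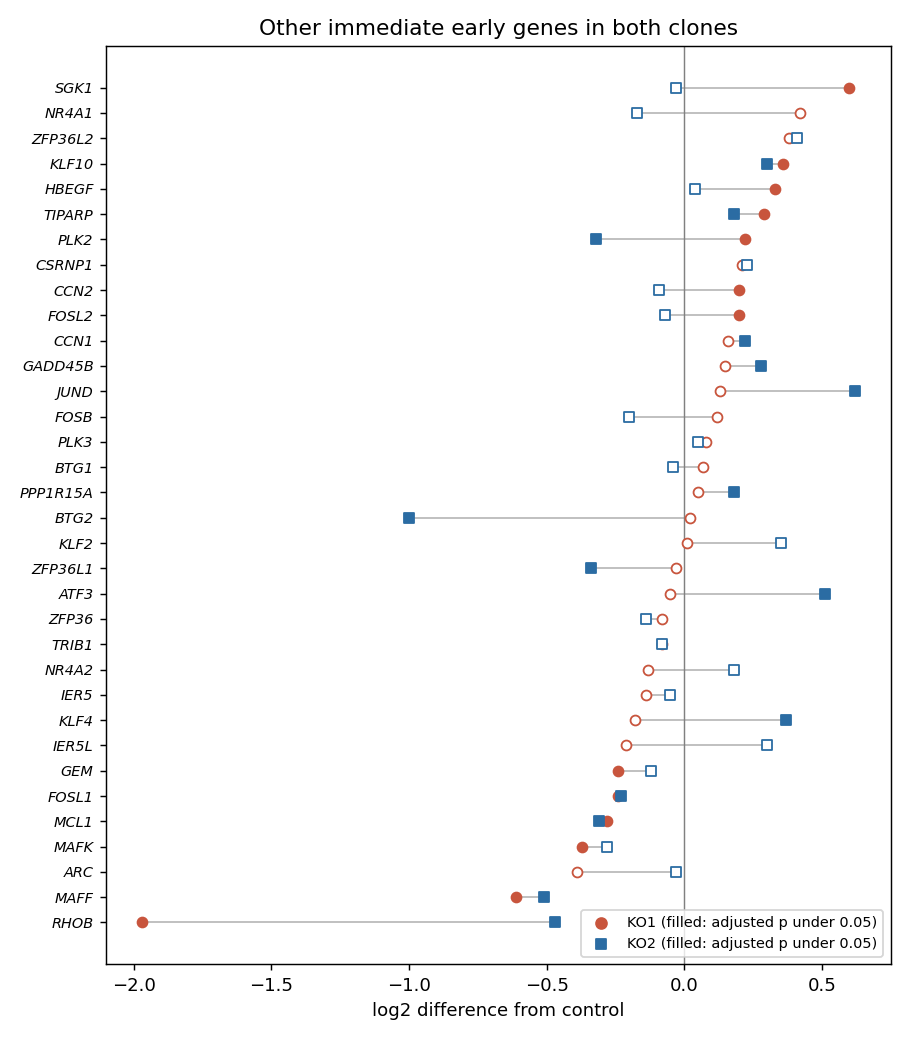
Log2 difference from control of the 34 other immediate early genes tested, in KO1 (circles) and KO2 (squares), ordered by KO1; filled marks passed an adjusted p of 0.05, and both clones share the control libraries. RHOB in KO1 (-1.97) and BTG2 in KO2 (-1.0) stand furthest from 0.

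Proteins that bind AU-rich elements, which set how long many of these mRNAs last, were also measured. Of 12 listed, all tested, in KO1 6 rose and none fell, while KO2 had 2 higher and 1 lower (limma), beside 20.2% higher and 14.1% lower of all tested genes in KO1 and 15.6% and 14.8% in KO2. At an unadjusted p under 0.05, 7 were higher and 0 lower in KO1. With median centring 5 rose in KO1, with limma-voom 7 and with the GC and length trend subtracted 4, and none fell in any of these. The median log2 difference was 0.22 in KO1 and 0.02 in KO2, beside 0.035 and 0.01 over all genes. KHSRP, which promotes decay, rose from 329.3 ± 5.05 TPM to 414.7 ± 20.3 in KO1 (SD, n = 3; log2 difference 0.33, limma adjusted p = 0.00087) and 382.4 ± 25.2 in KO2 (0.21, adjusted p = 0.0102). HNRNPD, also called AUF1, rose in KO1 by 0.22 (limma adjusted p = 0.0302), beside 0.11 in KO2 (adjusted p = 0.251). ZFP36L1, a decay factor of the tristetraprolin family, fell in KO2 by 0.34 (limma adjusted p = 0.00104), beside -0.03 in KO1 (adjusted p = 0.717). TIAL1, a translational silencer, rose in KO2 by 0.33 (limma adjusted p = 0.000419), beside 0.06 in KO1 (adjusted p = 0.383). The call of HNRNPD ended without any control library or KO1 A or C (limma adjusted p 0.0661 to 0.0993) and relative to its neighbours (0.372), and TIAL1, on chromosome 10, had 0.01 in KO2 relative to its neighbours (adjusted p = 0.91).

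Clonal lines can differ over whole stretches of a chromosome, so each member was set beside up to 50 tested neighbours, 25 on each side. The neighbours' median log2 difference lay between -0.09 and 0.07 in either clone for all 9 members, and KLF6, near the end of chromosome 10, had 35 neighbours. EGR1 (chr5:138465479-138469303, plus strand, hg38) had neighbour medians of 0.07 in KO1 and -0.04 in KO2. KLF6 (chr10:3775996-3785281, minus strand) had -0.01 and -0.07, DUSP1 (chr5:172768096-172771195, minus strand) -0.05 and -0.04, and JUNB (chr19:12791486-12793315, plus strand) -0.04 and -0.05. All of these medians were smaller in size than the called differences of these genes. With the neighbours' median subtracted, the 4 calls in KO1 and those of KLF6 and DUSP1 in KO2 held, and MYC was called in KO2 as well (0.22, limma adjusted p = 0.0326).

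The genes whose pattern over the 9 libraries was most like that of a member were found for the 3 members whose line means lay furthest apart, EGR1 (range 1.93), FOS (0.72) and JUNB (0.63 on the log2 scale). Likeness was the root mean square difference of log2 TPM, each gene centred on its own mean. NACAD (0.323), CKB (0.349) and KISS1 (0.396) were closest to EGR1, beside a median of 0.897 over all tested genes. MFSD3 (0.109), PPP1R35 (0.136) and TNNC1 (0.14) were closest to JUNB, beside 0.408. ZNF443 (0.215), FGF5 (0.241) and ENSG00000273203 (0.242) were closest to FOS, beside 0.467, and the pattern of FOS rests on few reads.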

How the data were processed

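The authors deposited log2 TPM values (TPM is scaled by gene length and library) of 15258 genes in 9 input libraries. The tools, per the submitters' processing notes, were featureCounts, HISAT2 2.0.4, edgeR 3.12.1, R 3.3.3 and SAMtools 1.7, on hg38. Tool roles, annotation and strand setting: not given in the sources used here, and reads of a gene and an antisense partner may not be told apart. Whole reads were recovered from the steps between low values (100% of values within 1e-06 of a whole read, relative to the read number above 1 read), between 7848089 and 11393206 per library; 3 reads are 0.263 to 0.382 counts per 1e+06. Intervals from reads would cover counting error only. Tests used limma-trend (limma 3.58.1, R 4.3.3) with 1 mean per line and 6 residual degrees of freedom. The 14512 genes that averaged 1 TPM or more were tested, p-values were adjusted over all of them by Benjamini-Hochberg, and calls were made at a two-sided adjusted p under 0.05. Fold changes are on the deposited scale and are understated for low genes. Positions and gene models came from GENCODE 44, promoters from RefSeq.

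Members and lists were chosen with earlier results of these data known. Named from each list were those with the largest mean absolute change among the called (2, or 4 for the wider immediate early, partner and serum response lists) and the 2 most abundant; FOSB was named after its values were seen, to complete its family. The values of GC-rich genes were also chosen after seeing the data. Alternatives were the pseudocount, filter, scaling, variance trend, samples fitted, replicate block, voom on reads, GC and length, neighbours, and leaving out each library. The code was tested on simulated data.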

Additional observations from a re-analysis of the deposited data

Results flagged for a closer look

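The clones KO1 and KO2 differed from each other in 3 of the 9 genes by a direct limma test of KO2 against KO1. EGR1 was lower in KO2 by a log2 difference of -1.93, with all 3 KO1 libraries above all 3 KO2 libraries. JUNB was higher in KO2 by 0.57, a call that ended in 5 alternatives. DUSP1 was higher in KO2 by 0.23, although it fell in both clones. Over all tested genes 28.7% passed the same test.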

How the results depend on the processing

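Of 739 comparisons of a member's difference with its value under an alternative, 689 kept direction and side of the threshold, 21 passed it newly, 9 no longer passed and 20 changed sign. The calls of EGR1 in KO1, of KLF6 and DUSP1 in both clones, and of EGR1 and DUSP1 between the clones held in all 21 alternatives. The 9 lost calls were those of JUNB. None of the sign changes concerned a value that passed the test, and their cause was not tested. IER2 in KO1 was -0.0117 after median centring and -0.028 with limma-voom, and ranged from -0.0484 to 0.064 when 1 library was left out. IER3 in KO1 was -0.012 with limma-voom, and -0.17 to 0.324 with 1 library left out. MYC in KO1 was 0.0407 relative to its neighbours. JUNB in KO2 ranged from -0.211 to 0.0379, and JUN and IER3 between the clones from -0.0798 to 0.132 and -0.0196 to 0.78, with 1 library left out. On the average of both clones FOS was -0.00104 after quantile normalization and ranged from -0.109 to 0.183, and IER2 was 8.62e-05 with the GC and length trend subtracted, 0.00589 relative to its neighbours, and ranged from -0.0924 to 0.00908. Between the clones 5 members passed with the GC and length trend subtracted in place of 3, and 2 to 5 with 1 library left out, where 5 was reached without KO2 replicate C.

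No pairing of libraries across lines by replicate letter was seen. Correlations of deviations from the line means were -0.074 to 0.037 over 9 same-letter pairs and -0.109 to 0.123 over 18 different-letter pairs. Correlations this weak do not establish that the letters were unpaired. With a replicate block 4375 genes passed in KO1 in place of 4975, 3877 in KO2 in place of 4414 and 3516 between the clones in place of 4165, and the members called numbered 4, 2 and 3 as without it. FOS and IER3 were not tested with a mean of at least 5 TPM, and their 3 to 15 reads per library limit them to wide intervals. Of 12 alternatives that keep all libraries, calls of genes outside the 9 ended in 5 for FOSL2, 4 for HNRNPD, 3 for MAP2K1, 2 for BATF3 and 1 for FOSL1 in KO1, and in 5 for MRTFA, 4 each for RHOB and JUND, 2 each for FOSL1 and MAP2K1, and 1 for CCN1 in KO2. The replicate block was among these alternatives for FOSL2 and MAP2K1 in KO1 (limma adjusted p 0.0579 and 0.0522) and for MRTFA, RHOB and JUND in KO2 (0.0873, 0.0595 and 0.0651). Further calls ended in 1 of the 12, the neighbours' median subtracted. These were NAB1 and HSPD1 in both clones and MXI1, DUSP5 and TIAL1 in KO2.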
